A study of Mus musculus with 12 samples.

Results

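A set of 10 imprinted growth genes was followed in mouse cartilage progenitor pellets as these passed from cartilage to osteogenic culture. They were Mest, H19, Dlk1, Meg3, Peg3, Plagl1, Grb10, Ndn, Cdkn1c and Peg10, which is 10 of the 28244 gene symbols listed, and 10 of the 10 were among the 17674 genes that passed the filter on low values. The genes were taken by symbol as imprinted genes of embryonic growth, and they were selected on measured values in part, since the sharp fall of Mest at D10 was a reason for the choice. The D10 levels are therefore given as a description, without a test, and the tests on these genes compare only D7, D8 and D28.

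An imprinted gene is transcribed mainly from the copy inherited from 1 parent, and the parental copies are told apart by DNA methylation laid down in the egg or the sperm. Many imprinted genes act on the size of the fetus and placenta, are abundant in embryonic mesoderm and are turned down after birth, and several of them work on insulin-like growth factor signalling or on the cell cycle. They lie in clusters in which genes expressed from the mother's and the father's copy share a control region, as H19 does with Igf2 and Meg3 with Dlk1. Gene counts from an inbred strain do not separate the parental copies, so the values below are totals over both.

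Cells came from the joint ends of the femurs and tibiae of C57/BL6 pups aged 5 or 6 days. They were spun into pellets and kept for 7 days in chondrogenic medium, and the D7 libraries were made at the end of that time. The medium was then changed to an osteogenic one, and pellets were taken after 1 day (D8), 3 days (D10) and 21 days (D28). There were 12 poly(A)-selected libraries, 3 replicates at each time point. The paper measured marker genes by PCR in pellets kept in chondrogenic medium alone, but no such group was sequenced. In these libraries, time in culture and the change of medium cannot be told apart. The labels do not say whether replicates came from separate animals or cultures, so the p-values measure the spread between these samples, which may be technical.

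Values are the log2 of an equalized read count plus 1, as deposited by the authors. The equalization gave every library nearly the same sorted values, with a shared maximum of 20.92, so a value is close to a rank and the original totals are not kept. Relative depth read from the lowest levels ran from 0.730 in a D10 library to 1.31 in a D28 library. A count of 3 reads stood at 2.87 or lower in every library, and the lowest value of any of these genes was 7.04, in a D10 library for Peg10. A gene was called when limma, fitted across all tested genes, gave a log2 difference of 1 or more in size together with an adjusted p (Benjamini-Hochberg) below 0.05. In pellets, fewer cells of a type and less RNA per cell cannot be told apart.

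The cartilage label was borne out by the markers, with Col2a1 at 20.92, the top value, on average at D7, D8 and D28 and at 19.87 at D10, and with Sox9 between 12.11 and 12.44 in the means of the 4 time points. Other cell types moved with time. The summed equalized count of 7 skeletal muscle markers was 3071 to 3765 at D7, 326.3 to 478.6 at D10 and 109.5 to 211.9 at D28, and 7 of 7 were called lower at D28 than at D7. The sum of 5 adipocyte markers was 3928 to 4693 at D7, 948.7 to 1408 at D10 and 40930 to 55690 at D28, where 5 of 5 were called higher than at D7. The 7 cartilage markers summed to 2452000 to 2471000 at D7, 1102000 to 1147000 at D10 and 2372000 to 2439000 at D28, a sum made up mostly of Col2a1, which is held at the shared maximum at D7 and D28. Of the 7, 5 were called lower at D10 than at D7 and 4 higher at D28 than at D10. Matn3 had means of 12.66, 8.29 and 11.97 at D7, D10 and D28, Hapln1 of 14.91, 12.78 and 15.56, Comp of 16.98, 15.21 and 16.74, and Acan of 17.62, 16.45 and 17.80, each lowest at D10, while Col9a1 had means of 16.61, 14.96 and 14.90. The sum of 7 proliferation markers went from 5076 to 5279 at D7 to between 968.9 and 1424 at D28. The 7 osteoblast markers summed to 363600 to 575900 at D7, 108700 to 197900 at D10 and 177600 to 198200 at D28, and the 3 hypertrophic cartilage markers to 153400 to 181100, 207100 to 329400 and 16380 to 57890. The first of these sums is mostly Col1a1, with means of 18.72, 17.21 and 17.30, and of the 7 markers 2 were called higher and 4 lower at D10 than at D7, and 4 higher at D28 than at D10. Ibsp had means of 15.50, 9.15 and 14.01, Alpl of 13.40, 10.14 and 12.61 and Sp7 of 10.57, 9.24 and 10.25, each lowest at D10. Bglap had means of 3.21, 6.46 and 8.98, Dmp1 of 5.23, 8.39 and 7.44 and Runx2 of 10.16, 9.81 and 9.58. The other is mostly Col10a1, with means of 17.27, 18.10 and 14.28, while Ihh and Pth1r were called lower at D10 than at D7, from means of 7.73 to 1.76 and 13.17 to 10.31. The 5 macrophage markers summed to between 803.9 and 1406 at D7, D8 and D10 and to between 839 and 4412 at D28. Endothelial markers were low, with the mean of Tie1 at 0 at D10 and a summed count of at most 171.5 in any library. The part of these shifts in the values of the imprinted genes was not tested.

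All 10 genes were lower at D10 than at D7, and they parted ways at D28. Against D7, only Plagl1 and Peg10 were called at D28, both lower. Another 5 genes had a small adjusted p without reaching the fold threshold, with a log2 difference of -0.97 for Peg3, -0.90 for Dlk1, -0.83 for Grb10, 0.55 for Ndn and 0.89 for Cdkn1c. Mest, H19 and Meg3 did not pass the test at D28 against D7, with limma adjusted p of 0.28, 0.392 and 0.653. The size of the D10 dip ran from 0.77 for Ndn to 5.55 for Mest on the log2 scale. In 10 of 10 genes, each D10 library was below each D7 library, a pattern seen in 22.0% of all tested genes. Against D8 this held for 9 of 10, with 21.9% of all tested genes, and 8 of 10 had each D28 library above each D10 library, with 25.6% of all tested genes. Nothing is read from these 3 counts or from the shared fall at D10, because the choice of the genes used the D10 level of Mest.

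**Figure D1:**
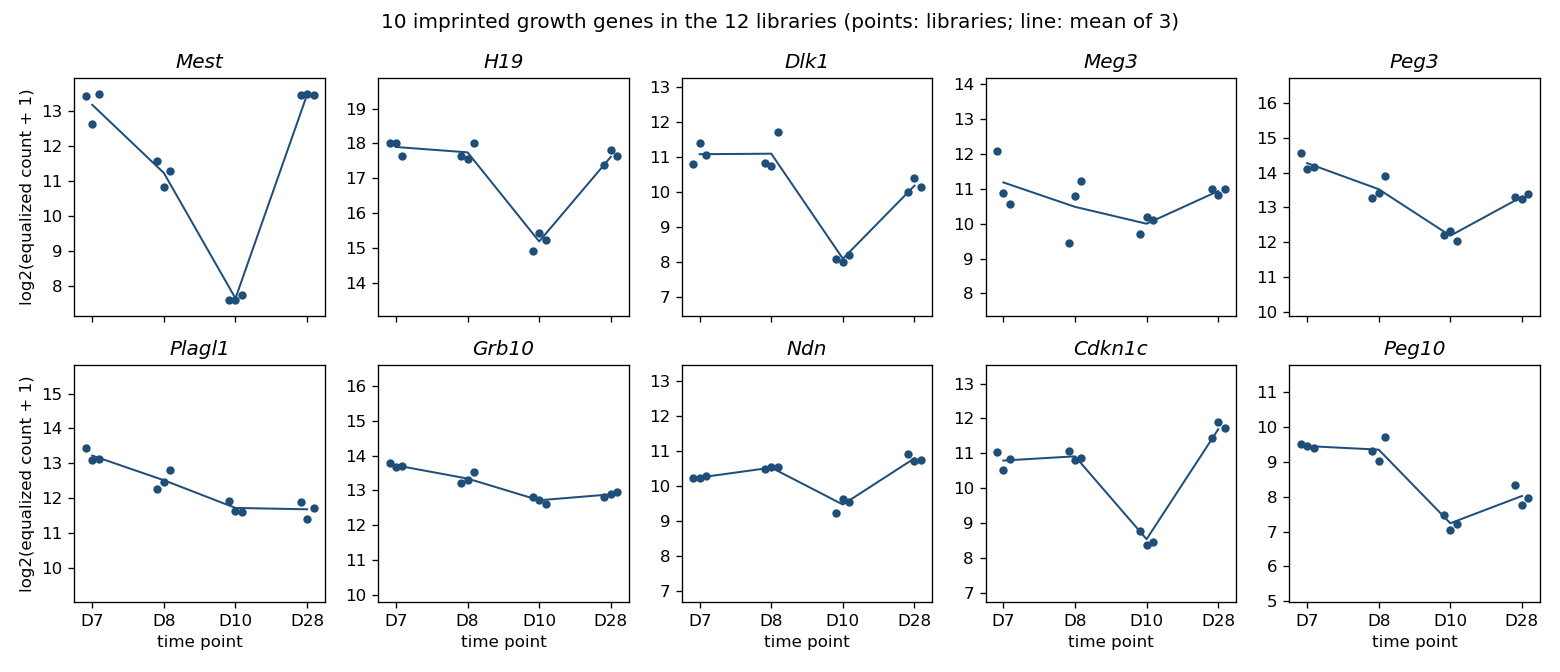
Deposited log2 values of the 10 genes (vertical axis, log2 of the equalized count plus 1, 6.8 units tall in every panel) at the 4 time points (horizontal axis, not to scale in time). Each point is 1 library and the line joins the means of 3. The D10 points lie lowest in all panels except that of Plagl1, where the D10 and D28 points overlap, and those of Meg3 and Grb10, where D10 points overlap with points of D8 and of D28 respectively.

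Sequences are shown for the genes whose promoters or hosted microRNAs help to place them. RefSeq windows of the build GRCm38.p6, from 250 bases before to 50 bases after a start site, matched 7 of the 10 genes with 11 windows. The first 3 lines give 1 window each for Mest (chr6:30737800-30738099, plus strand), Peg3 (chr7:6730370-6730669, minus strand) and Meg3 (chr12:109540746-109541045, plus strand), read 5′ to 3′ along the gene. Capitals mark 4 motifs searched on both strands, the cyclic AMP response element TGACGTCA, the GC box GGGCGG, the TATA box TATAAA and GGGGCCCC, a palindrome that the Plagl1 protein is known to bind. The last 4 lines are the mature microRNAs from inside Mest and H19, with the seed (bases 2 to 8) in capitals.
Mest promoter: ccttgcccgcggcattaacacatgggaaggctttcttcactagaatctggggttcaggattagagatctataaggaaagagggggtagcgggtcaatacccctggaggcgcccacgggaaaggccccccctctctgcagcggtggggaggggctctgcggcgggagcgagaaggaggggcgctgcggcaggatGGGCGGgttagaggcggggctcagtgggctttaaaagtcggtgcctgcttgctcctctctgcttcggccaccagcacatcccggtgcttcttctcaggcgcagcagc
Peg3 promoter: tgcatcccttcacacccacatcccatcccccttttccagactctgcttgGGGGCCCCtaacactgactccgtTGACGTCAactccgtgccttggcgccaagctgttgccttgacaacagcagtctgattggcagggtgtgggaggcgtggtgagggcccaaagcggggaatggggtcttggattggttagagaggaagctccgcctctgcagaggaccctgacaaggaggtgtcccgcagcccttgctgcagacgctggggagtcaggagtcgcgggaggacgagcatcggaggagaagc
Meg3 promoter: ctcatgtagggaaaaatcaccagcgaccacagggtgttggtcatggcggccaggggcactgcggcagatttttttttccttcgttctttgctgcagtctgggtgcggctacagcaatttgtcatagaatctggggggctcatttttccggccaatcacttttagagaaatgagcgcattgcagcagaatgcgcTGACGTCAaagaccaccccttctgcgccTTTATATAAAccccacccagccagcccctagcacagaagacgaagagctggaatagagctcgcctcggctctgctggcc
mmu-miR-335-5p: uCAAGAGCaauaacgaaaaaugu
mmu-miR-335-3p: uUUUUCAUuauugcuccugacc
mmu-miR-675-5p: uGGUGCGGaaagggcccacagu
mmu-miR-675-3p: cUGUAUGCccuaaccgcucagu

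The cyclic AMP response element, a site for the CREB family of factors, was present at full length in the windows of Peg3, 178 bases before the start, and Meg3, 57 bases before it. It was found in 1.79% of the 32851 windows of all genes. In Meg3 a TATA box lay 25 bases before the start and overlapped one on the other strand at 29 bases, and 13.6% of all windows held this motif. The palindrome GGGGCCCC occurred in 1 of the 11 windows, that of Peg3, at 201 bases before the start, and in 1.08% of all windows. The GC box was found in 35.7% of all windows and, in the Mest window shown, 57 bases before the start. The 11 windows held between 1 CG dinucleotide, in a Meg3 window, and 45, in a Grb10 window, with 26 for Plagl1 and 17, 13 and 13 in the windows shown of Mest, Peg3 and Meg3. Over all windows the median was 7 and the upper quartile 20. A match is a run of letters and not a measured site, and the motifs were chosen after the sequences had been seen.

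Mest (ENSMUSG00000051855.15, chr6:30723547-30748465, plus strand) encodes a protein of the hydrolase fold and is expressed from the father's copy in embryonic mesoderm. Its 3 libraries at D7 stood at 13.44, 12.63 and 13.49, and those at D8 at 11.58, 10.82 and 11.30. At D10 they stood at 7.60, 7.60 and 7.73, and at D28 at 13.48, 13.49 and 13.47. The D10 libraries lay far below all others and close together, while D28 fell within the range of D7. At D8, 1 day after the change of medium, Mest had fallen by 1.95 (SE 0.20), a level 3.87-fold lower than at D7 (limma, adjusted p = 1.18e-05). From D8 to D28 it rose by 2.24 (SE 0.20), or 4.74-fold (limma, adjusted p = 3.33e-07). D28 and D7 differed by 0.29, with a 95% interval from -0.13 to 0.72 (limma, adjusted p = 0.28). Over the alternative settings this difference ran from 0.01 to 0.44 and did not become a call. The description at D10 was a level 46.7-fold below D7 and 57.2-fold below D28. In equalized counts the D10 libraries held 193 to 211, at ranks 9075 to 9291 from the top, and the D28 libraries 11344 to 11538, at ranks 254 to 259.

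The Mest locus holds a neighbour and a microRNA that bear on reading these values. The 3′ end of Mest overlaps Copg2, the gene of a coatomer subunit on the opposite strand, by 912 bases, and the strand setting of the counting was not given in the sources used here, although the kits named in the labels keep strand. Copg2 had means of 10.51, 10.34, 10.04 and 10.75 at D7, D8, D10 and D28, a range of less than 1 over the times at which Mest ranged over 5.84. Copg2 differed by -0.46 at D10 against D7 (SE 0.10, limma, adjusted p = 0.0013) and by 0.71 at D28 against D10 (adjusted p = 1.76e-05), with no overlap between the libraries in either, and was not called in any of the 6 comparisons. Of the other 3 tested genes of the locus, 2 were called lower at D10 than at D7 and higher at D28 than at D10, and they are named here after their values had been seen. Klf14, a transcription factor gene, stood between 4.86 and 6.32 at D7, between 0 and 2.79 at D10 and between 5.23 and 5.36 at D28 (limma, adjusted p = 2.3e-05 for the fall and 4.15e-05 for the rise). Cpa4, a carboxypeptidase gene, stood between 2.52 and 4.00 at D7, between 0 and 1.37 at D10 and between 2.68 and 3.37 at D28 (limma, adjusted p = 0.000971 and 0.00102). The D10 values of both were around or under the 3-read level, so no fold is given. Klhdc10 was not called in any comparison. The microRNA miR-335 lies inside Mest, outside its annotated exons (chr6:30741314-30741336 for the 5p arm), and its mature form was not measured by these poly(A)-selected libraries.

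H19 (ENSMUSG00000000031.16, chr7:142575529-142578143, minus strand) is a long non-coding RNA from the mother's copy and the precursor of miR-675, whose 5p arm lies in an H19 exon (chr7:142577112-142577133). The D7 libraries stood at 18.02, 18.02 and 17.65, the D8 libraries at 17.65, 17.56 and 18.02, the D10 libraries at 14.91, 15.44 and 15.23, and the D28 libraries at 17.38, 17.82 and 17.65. The D10 libraries were apart from the rest, and the other 9 overlapped. Several of these values are the same number because the equalization gives 1 value to each rank, and at ranks 6 to 11 the steps between ranks are wide. H19 was at rank 6 to 8 of all genes at D7, 6 to 9 at D8, 51 to 82 at D10 and 7 to 11 at D28. Its log2 difference was -0.15 at D8 against D7 (95% interval -0.67 to 0.36), -0.28 at D28 against D7 (-0.80 to 0.23) and -0.13 at D28 against D8 (-0.64 to 0.38). None of these 3 passed the test, with limma adjusted p between 0.392 and 0.714. At D10 the mean was 6.53-fold below D7, and D28 was 5.37-fold above D10.

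Igf2, the growth factor whose gene shares enhancers with H19 and is expressed from the father's copy, was still low at D28. Igf2 fell by 2.49 from D7 to D28 (SE 0.16, limma, adjusted p = 1.27e-08), from a mean of 12.80 to 10.31, after 9.70 at D10. Within a library the log2 value of H19 exceeded that of Igf2 by 5.02, 5.41 and 4.87 at D7, by 6.00, 5.63 and 5.77 at D8 and by 7.06, 7.58 and 7.26 at D28. Gene length cancels when this difference is compared between time points. The D28 libraries lay above all D7 and D8 libraries in it, and it widened by 2.20 from D7 to D28. An exact two-sided permutation test of 3 against 3 libraries cannot go below p = 0.1, so this widening is given as a description.

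Cdkn1c (ENSMUSG00000037664.13, chr7:143458339-143461050, minus strand) encodes a cyclin-dependent kinase inhibitor expressed from the mother's copy, which in the growth plate takes part in the exit of chondrocytes from the cell cycle. It lies 880195 bases from H19 in the same domain. Its libraries stood at 11.03, 10.53 and 10.82 at D7, 11.08, 10.81 and 10.85 at D8, 8.77, 8.38 and 8.47 at D10, and 11.44, 11.89 and 11.73 at D28. The D28 libraries were the highest and the D10 libraries the lowest, and D7 and D8 overlapped. At D28 the level was 1.86-fold that at D7, a log2 difference of 0.89 (SE 0.15, limma, adjusted p = 0.000202), and 1.71-fold that at D8 (adjusted p = 0.000607). Both had a small adjusted p but stayed under the fold threshold of a call. Without D7 replicate 1 the difference from D7 was 1.01, and without D28 replicate 1 it was 1.02, which are calls. D10 was 4.77-fold below D7, and D28 was 8.86-fold above D10, the widest such span after Mest. The related inhibitors Cdkn1a and Cdkn1b, which are not imprinted, differed by 0.58 or less on the log2 scale in all 6 comparisons and were never called. Some of these differences also had a small adjusted p. Cdkn1b differed by 0.58 at D28 against D8 (limma, adjusted p = 0.000293) and by -0.47 at D8 against D7 (adjusted p = 0.00433). Cdkn1a differed by -0.50 at D28 against D10 (limma, adjusted p = 0.0012).

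Dlk1 and Meg3 share a locus and lie 77664 bases apart. Dlk1 (ENSMUSG00000040856.17, chr12:109452823-109463336, plus strand) encodes a membrane protein related to the Notch ligands that holds back fat cell formation, and is expressed from the father's copy. It stood at 10.81, 11.39 and 11.05 at D7, at 10.83, 10.74 and 11.73 at D8, at 8.08, 7.99 and 8.20 at D10, and at 10.00, 10.40 and 10.15 at D28. The D10 libraries were lowest, the D28 libraries came next without overlap, and D7 and D8 overlapped. D8 and D7 differed by 0.01 (95% interval -0.44 to 0.47, limma, adjusted p = 0.976). D28 was lower than D7 by a log2 difference of -0.90 (SE 0.21, limma, adjusted p = 0.00342) and than D8 by -0.92 (adjusted p = 0.00263), both short of the fold threshold. The second became a call, at -1.05, -1.10 or -1.03, without D8 replicate 1, D8 replicate 2 or D28 replicate 2, and the first, at -1.04 or -1.01, without D7 replicate 1 or D28 replicate 2. D10 was 7.98-fold below D7, and D28 was 4.27-fold above D10. The summed adipocyte markers given above were lowest at D10 and highest at D28, and their part in these values was not tested.

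Meg3 (ENSMUSG00000021268.17, chr12:109541001-109571726, plus strand), a long non-coding RNA from the mother's copy, had the widest spread of the 10 between replicates at D7 (SD 0.80) and D8 (SD 0.92), but not at D10 or D28 (SD 0.26 and 0.10). Its values were 12.08, 10.88 and 10.58 at D7, 9.44, 10.79 and 11.21 at D8, 9.70, 10.19 and 10.10 at D10, and 10.99, 10.81 and 10.99 at D28. Neighbouring time points overlapped throughout the order D7, D28, D8, D10, and replicate 1 gave both the highest D7 and the lowest D8 value, each well apart from the other 2. The 3 tested differences were -0.70 at D8 against D7 (95% interval -1.51 to 0.11), -0.25 at D28 against D7 (-1.06 to 0.56) and 0.45 at D28 against D8 (-0.36 to 1.26), with limma adjusted p between 0.216 and 0.653. Over the alternative settings the first ran from -1.06 to -0.18 and did not become a call. The sign of the second turned, to 0.20, without D7 replicate 1, and that of the third, to -0.07, without D8 replicate 1. The further genes of the locus went separate ways. Rian, the non-coding RNA downstream of Meg3, which was added after its values had been seen, had fallen by 1.06 at D28 against D7 (SE 0.27, limma, adjusted p = 0.00559). Dio3, the deiodinase that inactivates thyroid hormone, rose by 3.21 (SE 0.30, adjusted p = 5.95e-07), from a mean of 5.28 to 8.49, having stood at 5.14 at D10. The other tested genes of the locus were added after their values had been seen. Rtl1 was called lower at D28 than at D7, by a log2 difference of -1.70 (limma, adjusted p = 0.0144), from a mean of 4.57 to 2.87. Mirg differed by -0.73 (adjusted p = 0.0191) and Begain by 0.37 (adjusted p = 0.353), neither a call.

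Peg3 and Plagl1 encode zinc finger proteins that bind DNA, both from the father's copy, and Plagl1 is known for regulating other imprinted genes. Peg3 (ENSMUSG00000002265.16, chr7:6703892-6730431, minus strand) stood at 14.56, 14.10 and 14.15 at D7, 13.27, 13.41 and 13.89 at D8, 12.21, 12.33 and 12.03 at D10, and 13.29, 13.24 and 13.39 at D28. D7 was highest without overlap, D10 lowest, and D8 and D28 overlapped. Peg3 was 1.68-fold lower at D8 than at D7 (log2 difference -0.75, SE 0.16, limma, adjusted p = 0.00369) and 1.95-fold lower at D28 (-0.97, adjusted p = 2e-04), neither a call. The second passed the fold threshold when D7 replicate 2, D7 replicate 3 or D28 replicate 3 was left out, at -1.05, -1.03 and -1.01. From D8 to D28 the difference was -0.22 (95% interval -0.56 to 0.12, limma, adjusted p = 0.306). Over the alternative settings it ran from -0.35 to -0.03.

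Plagl1 (ENSMUSG00000019817.18, chr10:13060504-13131694, plus strand) had values of 13.43, 13.11 and 13.12 at D7, 12.27, 12.45 and 12.82 at D8, 11.91, 11.65 and 11.61 at D10, and 11.90, 11.41 and 11.73 at D28. The level stepped down to D10 and stayed there, with D10 and D28 overlapping. Plagl1 fell by 1.54 from D7 to D28 (SE 0.16, 2.91-fold lower, limma, adjusted p = 1.61e-06). It was lower by a log2 difference of -0.71 at D8 against D7 (adjusted p = 0.00438) and -0.83 at D28 against D8 (adjusted p = 0.000476), neither a call. D28 and D10 differed by -0.04, described without a test.

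Of the genes beside Peg3, Zim1, a neighbouring imprinted zinc finger gene, fell by 1.49 at D8 (SE 0.20, limma, adjusted p = 0.000112) and was lower by a log2 difference of -3.66 at D10 against D7 (adjusted p = 3.53e-09), then rose by 2.03 from D10 to D28 (adjusted p = 6.48e-07), where it was still called lower than at D7, at -1.64 (adjusted p = 1.23e-05). Peg3 itself was 1.12 higher at D28 than at D10, described without a test. Usp29, a ubiquitin protease gene whose start lies 146 bases from that of Peg3 on the other strand, fell by 1.36 at D10 against D7 (SE 0.17, limma, adjusted p = 1.6e-05) and by 1.67 at D28 against D7 (adjusted p = 2.14e-06). Usp29 was added after its values had been seen.

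Grb10 (ENSMUSG00000020176.17, chr11:11930508-12038683, minus strand) encodes an adaptor that dampens signals from the insulin and insulin-like growth factor receptors, and outside the brain is expressed mainly from the mother's copy. It stood at 13.79, 13.66 and 13.70 at D7, 13.22, 13.29 and 13.51 at D8, 12.81, 12.73 and 12.61 at D10, and 12.81, 12.90 and 12.96 at D28. As for Plagl1, the level stepped down and D10 and D28 overlapped. D28 was lower than D7 by a log2 difference of -0.83 (SE 0.11, 1.78-fold, limma, adjusted p = 1.98e-05) and than D8 by -0.45 (adjusted p = 0.00322), and D8 was lower than D7 by -0.38 (adjusted p = 0.0203). All 3 lay under the fold threshold. Of the receptors that Grb10 binds, Igf1r had means of 11.03, 10.75, 10.39 and 11.46 at the 4 time points and rose by 1.07 from D10 to D28 (SE 0.10, limma, adjusted p = 1.99e-07), its only call. Insr stayed between 10.20 and 10.59 in the means and was not called in any of the 6 comparisons. Next to Grb10, Cobl, an actin nucleator gene, rose by 1.38 at D10 against D7 (SE 0.21, limma, adjusted p = 9.38e-05), and Ddc, the gene of an amino acid decarboxylase, fell by 3.14 (SE 0.33, adjusted p = 2.5e-06).

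Ndn (ENSMUSG00000033585.5, chr7:62346569-62350262, plus strand) encodes necdin, a growth-suppressing protein of the MAGE family made from the father's copy. It stood at 10.22, 10.22 and 10.29 at D7, 10.48, 10.56 and 10.54 at D8, 9.24, 9.63 and 9.54 at D10, and 10.91, 10.72 and 10.76 at D28. No neighbouring time points overlapped, in the order D28, D8, D7, D10. The differences were small, and D28 exceeded D7 by 0.55 (SE 0.11, 1.46-fold, limma, adjusted p = 0.000886), under the fold threshold. D8 exceeded D7 by 0.28 (adjusted p = 0.0766) and D28 exceeded D8 by 0.27 (adjusted p = 0.0609). In the same domain, Ube3a, a ubiquitin ligase gene, rose by 1.02 at D10 against D8 (SE 0.21, limma, adjusted p = 0.00218), while at D10 against D7 it differed by 0.52 (adjusted p = 0.0586, libraries overlapping). Magel2, a gene of the same protein family as Ndn, is added after its values had been seen. It stood between 5.19 and 6.16 at D7, between 5.85 and 7.36 at D8, between 0 and 1.37 at D10, under the 3-read level, and between 2.66 and 4.38 at D28. Magel2 was called lower at D10 than at D7 and at D8 (limma, adjusted p = 3.45e-06 and 5.15e-06) and higher at D28 than at D10 (adjusted p = 0.000391). Mkrn3, also of this domain and added after its values had been seen, went the other way, at values around the 3-read level. Mkrn3 was called higher at D10 than at D8 (limma, adjusted p = 0.0104) and lower at D28 than at D10 (adjusted p = 0.0228). At D10 against D7 it was not called (adjusted p = 0.102). Peg12 fell by 2.54 at D28 against D7 (SE 0.29, limma, adjusted p = 5.15e-06), from a mean of 6.50 to 3.95.

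Peg10 (ENSMUSG00000092035.8, chr6:4747306-4760517, plus strand), a gene derived from a retrotransposon and needed for the placenta, is expressed from the father's copy. It stood at 9.51, 9.45 and 9.39 at D7, 9.30, 9.02 and 9.72 at D8, 7.46, 7.04 and 7.21 at D10, and 8.32, 7.77 and 7.96 at D28. D7 and D8 overlapped, D28 was lower, and D10 was lowest. Peg10 fell by 1.43 from D7 to D28 (SE 0.18, 2.69-fold lower, limma, adjusted p = 1.8e-05) and by 1.33 from D8 to D28 (adjusted p = 3.03e-05). D8 and D7 differed by -0.10 (95% interval -0.49 to 0.29, adjusted p = 0.753). Sgce, the gene of epsilon-sarcoglycan, starts 98 bases from Peg10 on the opposite strand. Sgce fell by 1.27 at D10 against D7 (SE 0.11, limma, adjusted p = 2.55e-07) and rose by 1.35 from D10 to D28 (adjusted p = 6.3e-08), where it differed from D7 by 0.08 (adjusted p = 0.614).

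**Figure D2:**
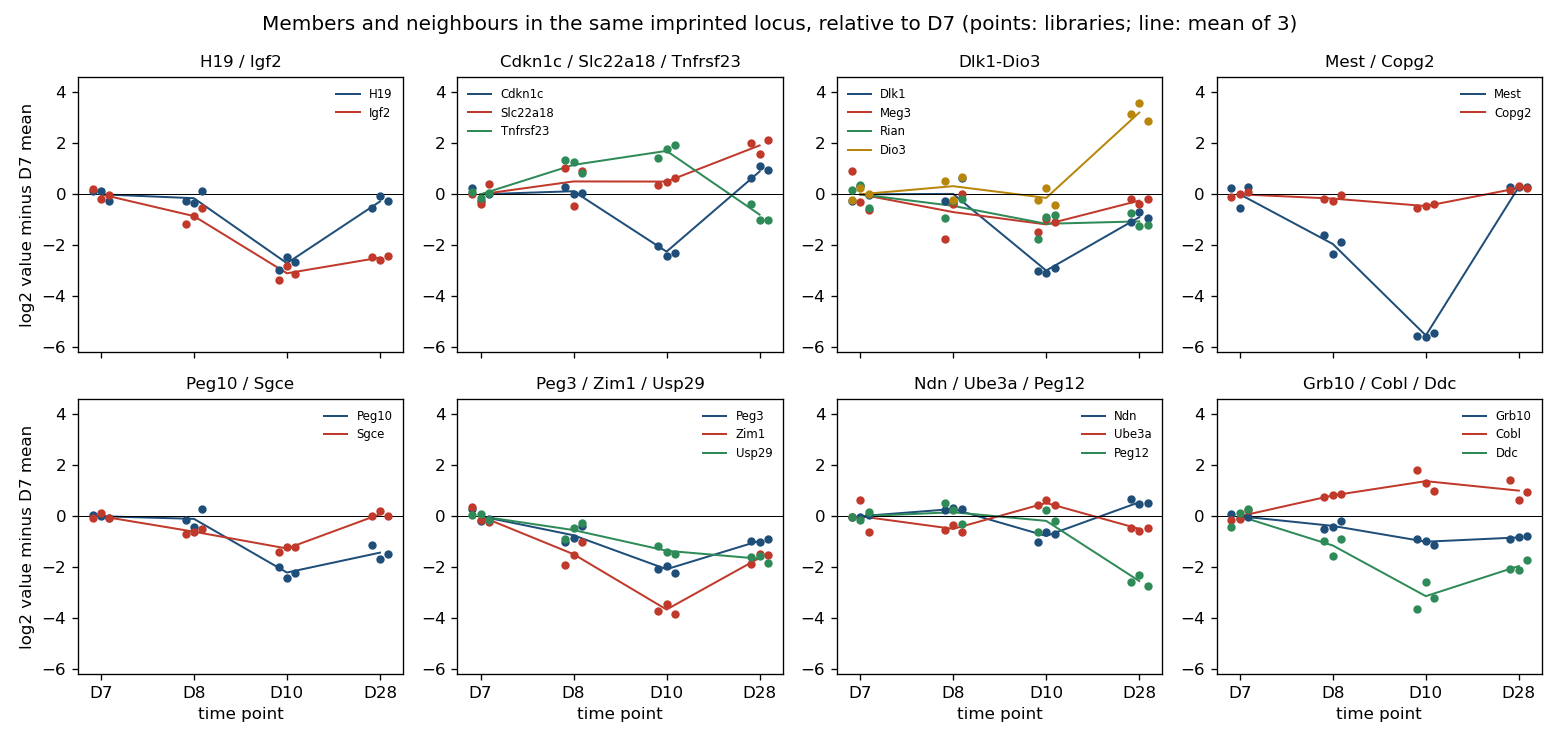
Members and neighbouring genes in 8 panels by imprinted locus, as log2 value minus the gene's own D7 mean (vertical axis) at the 4 time points (horizontal axis, not to scale in time), with 1 point per library and lines through the means of 3. Igf2 stays low at D28 while H19 returns, Dio3 rises only at D28, and Copg2 moves by less than 1 in either direction while Mest falls by 5.55 at D10.

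Set side by side per length of exon, with exons merged over transcripts, the genes spanned a wide range of levels. The merged length can exceed that of the transcripts present, which were not examined, so the order of the genes depends on the annotation. In equalized counts per kilobase at D7, H19 stood at 100100 ± 14150 (SD, n = 3), Mest at 2451 ± 730.6, Peg3 at 1499 ± 277.9, Grb10 at 1485 ± 70.16 and Plagl1 at 1228 ± 162.9. Cdkn1c stood at 877.9 ± 149.0, Dlk1 at 389.4 ± 79.85, Ndn at 328.2 ± 8.80, Meg3 at 142.9 ± 84.54 and Peg10 at 104.7 ± 4.45. Peg3 and Grb10 differed by less than their spread. At D10 Mest was at 50.5 ± 2.67 per kilobase, near Dlk1 at 48.1 ± 3.62 and Meg3 at 57.1 ± 9.80, and at D28 it stood at 2898 ± 24.9, below H19 and above the other 8. H19 led at every time point, with 15390 ± 2810 at D10.

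Counted together, 1 of the 10 genes, Mest, was called lower at D8 than at D7 and 0 higher, against 3.81% and 3.23% of all tested genes. At D28 against D7, Plagl1 and Peg10 were called lower and 0 genes higher, against 8.66% and 8.63% of all tested genes. At D28 against D8, Mest was called higher, with 10.0% of all tested genes, and Peg10 lower, with 9.70%. In the counts of 0 higher, unadjusted limma p under 0.05 with a positive difference was seen for Ndn at D8 against D7 and for Ndn and Cdkn1c at D28 against D7. Without D7 replicate 1, the count at D28 against D7 went from 2 to 4, with Cdkn1c and Dlk1 added. By adjusted p alone, without the fold threshold, 4, 7 and 6 of the 10 passed in the 3 comparisons, where 21.0%, 37.3% and 41.3% of all tested genes did. The median log2 difference of the 10 was -0.27 at D8 against D7, -0.56 at D28 against D7 and -0.17 at D28 against D8, beside 0.03, -0.03 and -0.08 over all tested genes. The D8 libraries were not alike in these genes, since replicate 3 was the highest of the 3 D8 libraries for 7 of the 10, among them Dlk1, Meg3 and Peg3, and for 32.8% of all tested genes.

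**Figure D3:**
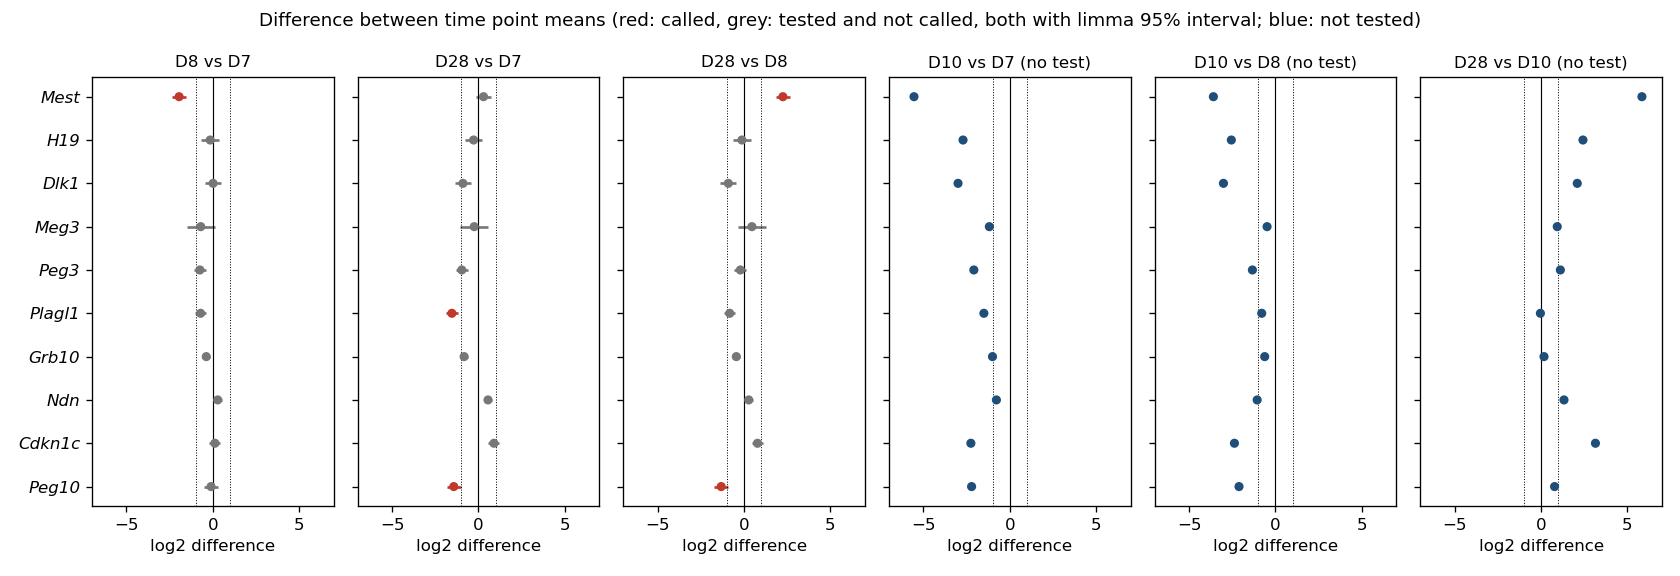
Log2 differences between time point means for the 10 genes (horizontal axis, log2 units), 1 panel per comparison, with limma 95% intervals in the 3 tested comparisons. Red marks a call, grey a tested difference that was not called, and blue the D10 comparisons, which were not tested. Dotted lines mark a difference of 1 in either direction. Mest lies at -1.95 in the first panel and at 2.24 in the D28 against D8 panel, and Plagl1 and Peg10 lie beyond -1 at D28 against D7.

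A list of 73 other imprinted genes gives the wider setting, of which 72 were listed in the file and 65 tested. Whether each of them is expressed from 1 parental copy in these cells was not measured. At D8 against D7, 3 of the 65 were called higher and 5 lower, where 3.23% and 3.81% of all tested genes were, and the count of 8 dropped to 5 without D7 replicate 2 or without D8 replicate 1. At D10 against D8, 4 were called higher and 9 lower, where 4.08% and 5.58% of all tested genes were. At D10 against D7, 6 were called higher and 19 lower, where 8.50% and 10.4% of all tested genes were. At D28 against D10, 19 were called higher and 9 lower, where 13.8% and 13.7% were. At D28 against D7 there were 8 higher and 13 lower, where 8.63% and 8.66% of all tested genes were called. At D28 against D8 there were 13 higher and 10 lower, where 10.0% and 9.70% were. By adjusted p alone, 21, 29, 38 and 36 of the 65 passed at D8 against D7, D10 against D8, D28 against D7 and D28 against D8, where 21.0%, 28.8%, 37.3% and 41.3% of all tested genes did. The median of the 65 was -0.24 at D10 against D7 and 0.38 at D28 against D10, beside 0.05 and -0.10 over all tested genes.

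Among these, Slc38a4, the gene of an amino acid transporter of the placenta and liver, also dipped and came back. It fell by 1.43 at D8 (SE 0.23, limma, adjusted p = 0.000477) and by 3.12 at D10 against D7 (adjusted p = 7.02e-08). It then rose by 4.37 from D10 to D28 (adjusted p = 6.86e-10), to 1.26 above D7 (adjusted p = 0.000526). Dcn, which encodes the matrix proteoglycan decorin, fell by 1.10 at D8 (SE 0.18, limma, adjusted p = 0.000596) and rose by 2.21 from D10 to D28 (adjusted p = 9.29e-08). Others ran the opposite way. Tnfrsf23, a decoy receptor gene of the domain that holds Cdkn1c, rose by 1.16 at D8 and by 1.71 at D10 against D7 (SE 0.18, limma, adjusted p = 0.000388 and 2.66e-06), then fell by 2.50 from D10 to D28 (adjusted p = 2.27e-08). Phlda2, of the same domain, was added after its values had been seen and was around the 3-read level at D7 and D28. It rose by 3.30 at D10 against D7 (SE 0.44, limma, adjusted p = 2.41e-05) and fell by 3.89 from D10 to D28 (adjusted p = 2.48e-06). Bcl2l1, a gene of cell survival, rose by 1.03 at D10 against D8 (SE 0.16, limma, adjusted p = 0.000223), and Herc3 rose by 1.43 at D10 against D7 (SE 0.28, adjusted p = 0.000802). At D28 against D7, Ano1, a chloride channel gene, rose by 1.97 (SE 0.30, limma, adjusted p = 0.000104) and Slc22a18, a transporter gene near Cdkn1c, by 1.92 (SE 0.37, adjusted p = 0.000803). Zdbf2 fell by 3.17 (SE 0.45, limma, adjusted p = 4.94e-05), from a mean of 7.17 to 4.00.

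**Figure D4:**
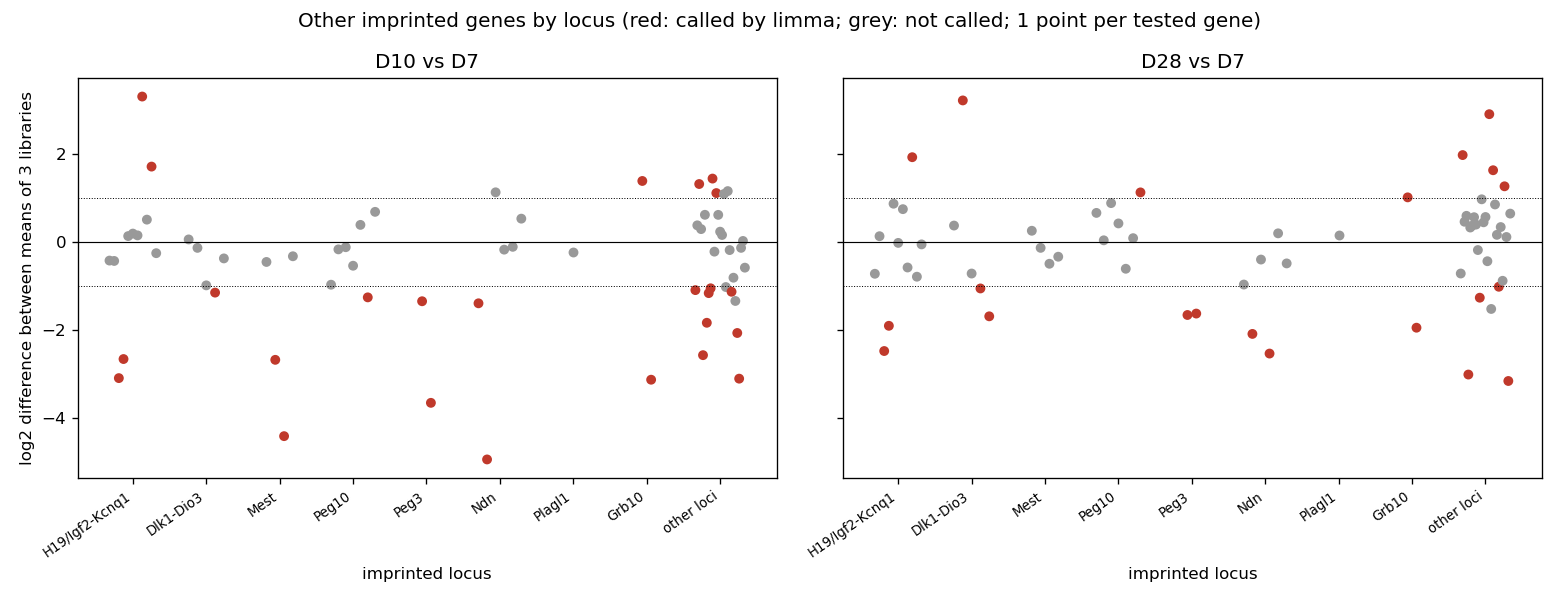
Log2 differences of the 65 tested other imprinted genes by locus (horizontal axis) at D10 against D7 (left) and D28 against D7 (right), each point the difference between means of 3 libraries. Red points were called by limma, 6 higher and 19 lower at D10 and 8 higher and 13 lower at D28, and dotted lines mark differences of 1.

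Genes that tracked Mest, H19 and Dlk1 over the 12 libraries were taken by Pearson r among 12180 genes with a mean of at least 5. The libraries fall into 4 time points, so r mainly compares 4 means, and it is given as a description. For Mest the 5 highest were Lrrc17 (r = 0.994), Lbp (0.993), Ptx3 (0.991), Rhob (0.991) and Dpt (0.989). Lrrc17 had means of 9.34, 8.18, 6.38 and 9.59 at D7, D8, D10 and D28, and Dpt, the gene of the matrix protein dermatopontin, 9.62, 8.36, 5.75 and 9.48, so both dipped less than Mest. For H19 they were Col2a1 (0.981), Scarb1 (0.976), Chrdl2 (0.973), Rbp4 (0.971) and Ccnd3 (0.965). Col2a1, the main collagen gene of cartilage, was at the shared maximum at 3 of the 4 time points and cannot vary there. For Dlk1 they were Foxo4 (0.971), Rtl3 (0.966), Col9a2 (0.964), H2-DMb1 (0.964) and Asrgl1 (0.956). Rtl3, which like Peg10 derives from a retrotransposon, had means of 12.05, 11.88, 8.37 and 10.82.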

How the data were processed

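RNA was sequenced from 12 pellet libraries, 3 replicates at each of 4 time points. The log2 values were deposited by the authors, who counted reads per gene with HTSeq after alignment with HISAT2, equalized the counts between libraries and took the log2 of the count plus 1. Trimmomatic 0.36 and Cufflinks are named in the submitters' processing notes, with the build GRCm38, whereas the supplementary methods name a human build and the file lists mouse symbols. Equalized values keep no library totals, so no count model was used.

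Genes were kept if 3 or more libraries reached a log2 value of 1, and limma 3.58.1 (R 4.3.3) was applied to them (1 mean per time point, variance trend, 8 residual degrees of freedom). The p-values are two-sided and Benjamini-Hochberg adjusted over the 17674 genes tested. The fit was tested on simulated data. Levels of 1 to 3 reads were read from the lowest distinct values of each library, and they cover counting error only. Gene positions are those of GENCODE M21 (GRCm38), and promoters and microRNAs are RefSeq sequences. Python 3.11.15 (pandas 2.3.3, matplotlib 3.10.9) served for sequences and figures.

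The genes, the list of other imprinted genes and the marker lists were chosen with earlier results of these data known. All 10 genes were named. Of the other imprinted genes, up to 3 that rose and 3 that fell most in each comparison were named, given a call, a mean of at least 5 and no overlap between libraries, together with Copg2 and Sgce (which overlap or adjoin a member), 4 partner genes (Cdkn1a, Cdkn1b, Igf1r and Insr) and the 5 genes most like each of Mest, H19 and Dlk1. Rian, Rtl1, Mirg, Begain, Usp29, Klf14, Cpa4, Klhdc10, Magel2, Mkrn3 and Phlda2 fall outside this rule and were added after their values had been seen. Alternatives covered the filter, the pseudocount, the scaling, the call rule, a replicate block and each replicate left out in turn. The labels describe 2 stranded mRNA kits without saying which libraries each was used for, and the supplementary methods name only Illumina Stranded mRNA Prep. The labels give no batch or date, so differences between kits or batches were not examined.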

Additional observations from a re-analysis of the deposited data

How the results depend on the processing

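The calls of Mest at D8 against D7 and at D28 against D8, of Plagl1 and Peg10 at D28 against D7 and of Peg10 at D28 against D8 held under all 20 alternatives. The count of genes below D7 at D10 stayed at 10 in the alternatives run for it. Nothing is read from that count, because the choice of the genes used the D10 level of Mest. By adjusted p alone the calls among the 10 genes went from 1 to 4 at D8 against D7, from 2 to 7 at D28 against D7 and from 2 to 6 at D28 against D8. The other imprinted genes called went from 8 to 21 at D8 against D7, from 13 to 29 at D10 against D8, from 21 to 38 at D28 against D7 and from 23 to 36 at D28 against D8. Under that rule 21.0%, 28.8%, 37.3% and 41.3% of all tested genes passed in these 4 comparisons. With a replicate left out, the 10 genes gave 2 to 4 calls at D28 against D7 and the other imprinted genes 5 to 9 at D8 against D7.

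Some differences changed sign. Under median-of-ratios scaling Dlk1 at D8 against D7 was -0.0366 and Plagl1 at D28 against D10 was 0.091. With a replicate left out, Dlk1 at D8 against D7 ran from -0.2984 (without D8 replicate 3) to 0.1943 and was also below 0 without D7 replicate 1 or 3. At D8 against D7, Cdkn1c ran from -0.0106 (without D7 replicate 2) to 0.2374 and Peg10 from -0.2888 to 0.0592 (without D8 replicate 2). H19 at D28 against D8 ran from -0.2298 to 0.0096 (without D8 replicate 3). Meg3 ran from -0.5505 to 0.2028 (without D7 replicate 1) at D28 against D7 and from -0.0693 (without D8 replicate 1) to 0.8153 at D28 against D8. Plagl1 at D28 against D10 ran from -0.1492 to 0.0952 and was above 0 without D10 replicate 1 or D28 replicate 2. The cause was not tested. Median-of-ratios scaling moved the median of all tested genes at D28 against D10 from -0.10 to 0.01.

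The replicate numbers did not pair the libraries, since the 18 correlations between same-numbered deviations ran from -0.06 to 0.07 and 3 of 12 libraries correlated best with their own number. With a replicate block the counts of calls were 1, 2 and 2 for the 10 genes and 8, 21 and 23 for the other imprinted genes at D8 against D7, D28 against D7 and D28 against D8, as without it, and it changed no other count. Depth limits only genes near 2.87, the 3-read level, such as Magel2, Klf14 and Cpa4 at D10, and none of the 10 genes was near it.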
